A study of Mus musculus with 3 samples.

Results

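The cyclin-dependent kinase (CDK) inhibitor family comprised 7 genes, Cdkn1a, Cdkn1b, Cdkn1c, Cdkn2a, Cdkn2b, Cdkn2c and Cdkn2d. They were taken by symbol, and all 7 had a row in each of the 3 raw count tables, out of 15527 genes present in all 3. The tables held single-cell RNA sequencing of the mouse pituitary intermediate lobe (IL), with 1 library per genotype, from animals of 3 months that all carried Sox9iresCreERT2/+, a tamoxifen-inducible Cre expressed from Sox9. The study describes SOX9 in the pituitary as unique to the stem cells (SCs), but also places SOX9 in the posterior lobe. Its lineage tracing with this Cre labelled mostly SCs, and rare melanotrophs in p27-/- animals. By the study's methods all animals here also carried the reporter allele Rosa26ReYFP/+. The library labelled WT had no further allele, the library labelled P27NULL was also p27-/-, and the library labelled S2CK was p27-/- and Sox2fl/+, so that 1 copy of Sox2 could be deleted in SCs. WT was a pool of males, and P27NULL and S2CK were each described as a male and a female. The labels place tamoxifen at 4 weeks and the study's text places it at birth, and this could not be settled.

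CDK inhibitors stop cells from entering the division cycle, and they form a pair of families. The Cip/Kip proteins p21 (Cdkn1a), p27 (Cdkn1b) and p57 (Cdkn1c) bind complexes of cyclins with CDK2 and also with CDK4 and CDK6. The INK4 proteins p16 (Cdkn2a), p15 (Cdkn2b), p18 (Cdkn2c) and p19 (Cdkn2d) bind only CDK4 and CDK6, and so keep D-type cyclins from phosphorylating the retinoblastoma protein and releasing E2F factors. In mice, loss of p27 gives IL tumors of melanotrophs, the POMC-producing cells of the lobe, loss of p18 also gives pituitary tumors, and loss of p57 in the embryonic pituitary disturbs exit of progenitors from the cycle. The question put to the tables was whether other inhibitors stood higher where Cdkn1b was labelled as lost.

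The genes lie on 5 chromosomes of the GRCm38.p6 assembly, with Cdkn2a, Cdkn2b and Cdkn2c on the same chromosome. Cdkn1b spans chr6:134920401-134925525, Cdkn1c chr7:143458339-143461059, Cdkn1a chr17:29090979-29100722 and Cdkn2d chr9:21288459-21291421. Cdkn2a (chr4:89274473-89294619) and Cdkn2b (chr4:89306289-89311032) are neighbors, and Cdkn2c lies further along at chr4:109660876-109666756. Cdkn2a encodes p16 and p19ARF from different first exons with a shared end, so 3′ counts cannot tell them apart. Cdkn2b overlaps a gene model, Gm12610, and its counts are uncertain because strand use in the counting is not given in the sources used here. RefSeq windows upstream of the annotated start were available for 6 of the 7 genes, with none for Cdkn1c. The 250 bases before the outermost annotated start are shown for Cdkn2c, the inhibitor that differed most clearly between libraries, and for Cdkn1b, the gene labelled as lost. They read 5′ to 3′ on the strand of the gene, from chr4:109666757-109667006 (minus strand) and chr6:134920151-134920400 (plus strand). Capitals mark matches, on either strand, to the letters TTCCCGC, the letters TTCGCGC, the letters TTGCCGC or the letters TTGGCGC, together called E2F, and to the letters GGGCGG, called Sp1.
Cdkn2c: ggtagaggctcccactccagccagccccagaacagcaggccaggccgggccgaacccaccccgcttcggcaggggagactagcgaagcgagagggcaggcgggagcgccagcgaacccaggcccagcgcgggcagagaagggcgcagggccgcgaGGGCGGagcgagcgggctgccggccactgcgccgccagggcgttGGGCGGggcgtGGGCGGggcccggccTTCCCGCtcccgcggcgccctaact
Cdkn1b: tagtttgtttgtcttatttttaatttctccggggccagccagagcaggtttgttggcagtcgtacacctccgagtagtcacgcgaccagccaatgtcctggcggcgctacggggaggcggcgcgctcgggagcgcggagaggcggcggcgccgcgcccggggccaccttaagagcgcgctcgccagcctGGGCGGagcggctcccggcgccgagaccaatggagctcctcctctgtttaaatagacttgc
The Cdkn2c window held 1 E2F match, 25 bases before the start, and 3 Sp1 matches that do not overlap it. The Cdkn1b window held 1 Sp1 match and no E2F match. Over all RefSeq mouse promoters of the same length, 7.89% held an E2F match and 32.7% an Sp1 match. Among the 9 windows of the family, some of which precede a start inside the gene, 2 held an E2F match, the other being a Cdkn2a window in which it lay 98 bases before the start. A match is a run of letters and not a measured binding site.

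The libraries held 2020 (WT), 4153 (P27NULL) and 3488 (S2CK) cells, with medians of 3642.5, 2740 and 4906.5 unique molecular identifiers (UMIs, the counted transcripts) per cell. WT cells had been kept down to 502 UMIs, and cells of the other libraries from about 1000. At most 4 cell barcodes were shared between any pair of libraries. Cells were clustered without the 7 genes, within each library and with all 3 libraries together, and named from markers. The names melanotroph-like and SC-like came from the clusters of each library, and the other names from the joint clustering. Melanotroph-like cells numbered 1270, 3545 and 3010 in WT, P27NULL and S2CK, and SC-like cells 145, 105 and 92. Pomc stood at 133202 to 173376 CPM (UMIs of the gene per 1000000 UMIs of the sum) in melanotroph-like cells, and at 12244 to 24884 CPM in SC-like cells, which is 9.19% to 15.0% of the melanotroph-like level in the same library. The SC markers Cyp2f2, Lcn2, Mia, Cpxm2, Rbpms and Ednrb stood at 0.219 to 28.4 CPM in melanotroph-like cells and at 212 to 6489 CPM in SC-like cells. Since every genotype was represented by 1 library, genotypes could not be tested against each other. Intervals are exact 95% intervals that cover counting error only, not the spread between animals, and a difference between genotypes cannot be told apart from one between libraries. Since the tables count 3′ ends, levels of single genes were not compared with each other, and sums over members weigh each gene by its counted UMIs.

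Cdkn1b, which encodes p27, was read first, beside the genotype labels. In melanotroph-like cells Cdkn1b stood at 33.7 CPM in WT (29.3 to 38.7, 205 UMIs), 31.1 in P27NULL (28.2 to 34.1, 426 UMIs) and 16.9 in S2CK (15.0 to 19.0, 289 UMIs). The intervals of WT and P27NULL overlapped, and S2CK lay below both. In SC-like cells Cdkn1b stood at 51.2 CPM in WT (34.3 to 73.6), 50.1 in P27NULL (30.2 to 78.2) and 24.3 in S2CK (13.9 to 39.5). The log2 ratio of P27NULL to WT was -0.12 in melanotroph-like cells (-0.36 to 0.13) and -0.03 in SC-like cells (-0.95 to 0.85). In these cells the Cdkn1b level in the library labelled P27NULL was thus near that in WT. In melanotroph-like cells the Cdkn1b level in S2CK was lower by 1.84-fold than in P27NULL. The smaller cell types varied, most of them on few UMIs. Macrophage-like cells held 9, 4 and 3 Cdkn1b UMIs in WT, P27NULL and S2CK, with log2 ratios to WT of -1.86 (-4.01 to -0.02) and -2.44 (-4.96 to -0.44). Pou1f1-lineage-like cells held 12, 0 and 0 UMIs, with intervals against WT that reach up to 0.38 for P27NULL and -1.25 for S2CK. Connective tissue-like cells held 7, 2 and 2 UMIs, with ratios of -1.85 (-5.16 to 0.54) and -2.24 (-5.54 to 0.16). Gonadotroph-like cells (-0.09 and -0.65) and a cluster led by Tnnt1 (-0.11 and -0.57) were below WT, and endothelial-like cells above it (0.34 and 0.46). All of these last intervals included no difference. A 3′ tag outside the deleted part of an allele checks nothing, and the part of Cdkn1b that the null allele lacks is not given in the sources used here. These levels thus cannot check the genotype labels. Every direction below is therefore drawn between libraries labelled P27NULL, S2CK and WT. The 3 comparisons share their libraries in pairs, so the 3 sets of ratios are not independent and are given side by side.

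In melanotroph-like cells, Cdkn2c was the inhibitor with the clearest difference between libraries. Its level was 30.4 CPM in WT (26.2 to 35.1, 185 UMIs), 45.9 in P27NULL (42.4 to 49.7, 630 UMIs) and 86.5 in S2CK (82.1 to 91.0, 1478 UMIs). The 3 intervals did not overlap, and the order was WT, P27NULL, S2CK. The levels of Cdkn1c and of the sum of the other members followed the same order, whereas Cdkn1a, Cdkn2a and Cdkn2b were highest in P27NULL. For Cdkn1c the order of WT and P27NULL was not kept when cells were thinned to an equal depth. A Cdkn1c UMI was then found in 0.721% of WT and 0.451% of P27NULL cells, on 9 and 16 cells. In S2CK the highest cell held 29 of its 182 UMIs. All 3 genes highest in P27NULL were low everywhere, with at most 90 UMIs in a library.

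**Figure D1:**
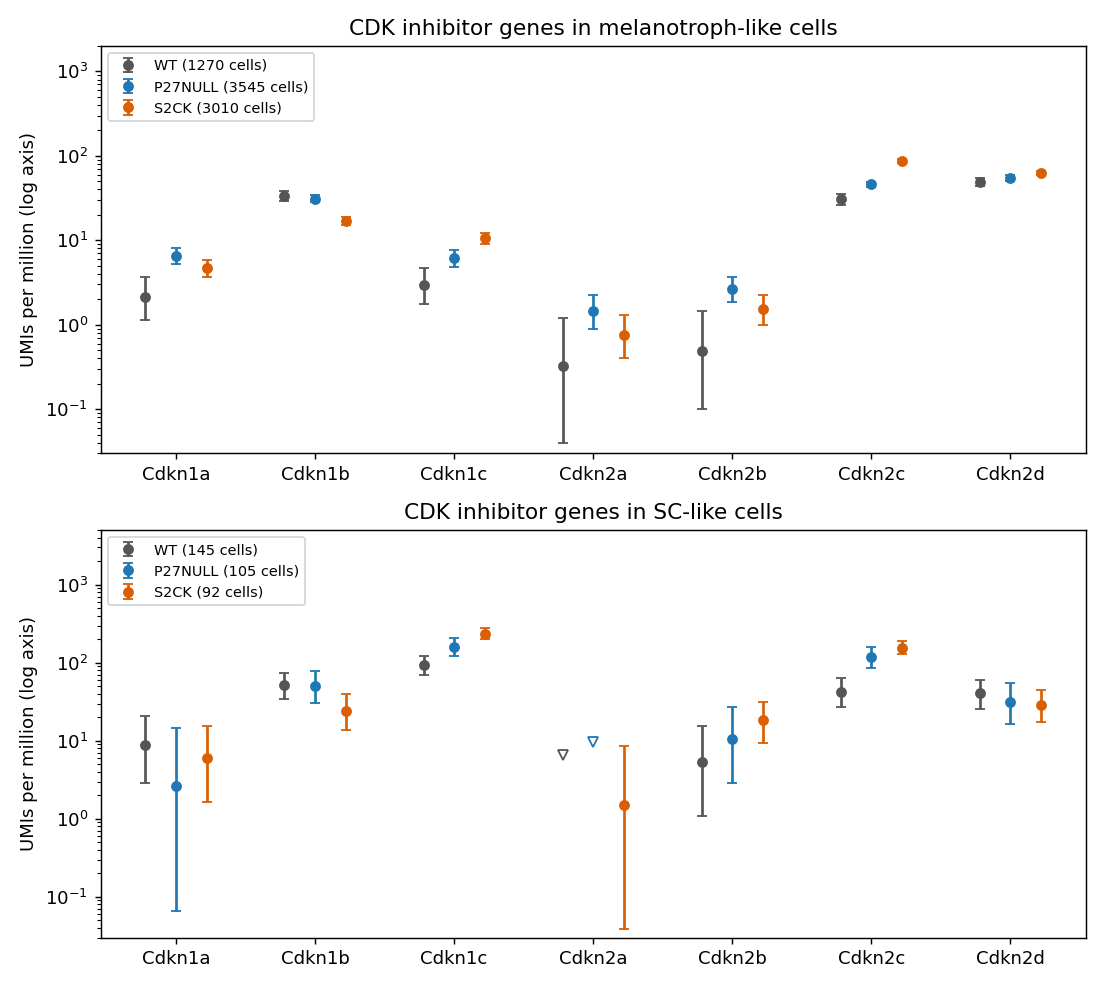
Level of the 7 CDK inhibitor genes in melanotroph-like and SC-like cells of the 3 libraries, in CPM on a log axis. Points are the levels of the summed UMIs, bars are exact 95% Poisson intervals, and open triangles mark the upper bound where a library had 0 UMIs. In melanotroph-like cells Cdkn2c steps up from 30.4 to 45.9 to 86.5 CPM, while Cdkn1b is lowest in S2CK at 16.9 CPM.

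Ratios were read against a difference of 1.5-fold, among genes whose UMIs reached 20 when the compared libraries were added up. Between P27NULL and WT in melanotroph-like cells, 5 of the 7 members were higher by 1.5-fold or more (Cdkn1a, Cdkn1c, Cdkn2a, Cdkn2b and Cdkn2c), against 11.0% of all 12953 genes. None was lower by that much, against 4.42% of all genes. The median log2 ratio of the members was 1.05 and that of all genes 0.10. Of the 5, Cdkn2a rested on 2 UMIs and Cdkn2b on 3 UMIs in WT. Their UMIs came mostly from P27NULL (20 and 36), so that reaching the minimum depended on the library where they were high. At a minimum of 50 UMIs, 3 of 5 members were higher, against 8.59% of all genes, with medians of 0.59 and 0.09. Of these, Cdkn1a and Cdkn1c also reached the minimum mainly through P27NULL, with 90 and 84 UMIs there and 13 and 18 in WT. The intervals of Cdkn2c (1.28 to 1.79-fold), Cdkn1c (1.23 to 3.66-fold) and Cdkn2a (1.08 to 39.1-fold) spanned the 1.5-fold line.

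Among the Cip/Kip genes, Cdkn1a (p21, a target of p53) stood at 2.14 CPM in WT (1.14 to 3.66), 6.56 in P27NULL (5.28 to 8.06) and 4.68 in S2CK (3.71 to 5.82). Its log2 ratio of P27NULL to WT was 1.62 (0.77 to 2.58) and that of S2CK to P27NULL -0.49 (-0.94 to -0.04). The WT interval did not overlap that of P27NULL and ended just under that of S2CK, where 28 of the 80 UMIs came from 5 cells and 1 cell held 10. Cdkn1c (p57) stood at 2.96 CPM in WT (1.75 to 4.68), 6.12 in P27NULL (4.88 to 7.58) and 10.6 in S2CK (9.16 to 12.3). Its log2 ratio was 1.05 (0.30 to 1.87) between P27NULL and WT and 0.80 (0.42 to 1.19) between S2CK and P27NULL. In S2CK, 60 of its 182 UMIs came from 5 cells, and 1 cell held 29. After each cell was thinned to 1000 UMIs, Cdkn1c was found in 0.721% of WT, 0.451% of P27NULL and 0.930% of S2CK melanotroph-like cells. The order of WT and P27NULL then reversed, on 9 and 16 cells, so no order is read from these shares.

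Among the INK4 genes, Cdkn2c (p18) was higher in P27NULL than in WT by 1.51-fold, in S2CK than in P27NULL by 1.88-fold (1.71 to 2.07) and in S2CK than in WT by 2.84-fold (2.44 to 3.33). With scaling by trimmed mean of M values (TMM) its log2 ratio of P27NULL to WT was 0.51 in place of 0.59, under the 1.5-fold line of 0.58, whereas that of S2CK to P27NULL was 1.04. A Cdkn2c UMI was found in 12.5% of WT, 15.1% of P27NULL and 37.2% of S2CK melanotroph-like cells, whose median depths were 4179, 2824 and 5022.5 UMIs. At 1000 UMIs per cell, with 22 shallower WT cells left out, these shares were 2.32% (1.56 to 3.32), 4.46% (3.80 to 5.19) and 8.14% (7.19 to 9.17), in the same order. No cell type known to lack Cdkn2c was at hand as a background for these shares. The S2CK level did not come from a few cells: the 5 highest cells held 27 of 1478 UMIs, and 286 cells held 2 or more.

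Cdkn2d (p19) differed least among the INK4 genes. It stood at 49.3 CPM in WT (43.9 to 55.3), 54.5 in P27NULL (50.7 to 58.6) and 63.1 in S2CK (59.2 to 67.0), with log2 ratios of 0.14 (-0.05 to 0.34) between P27NULL and WT and 0.21 (0.08 to 0.35) between S2CK and P27NULL. Cdkn2b (p15, induced by TGF-beta) stood at 0.493, 2.62 and 1.52 CPM on 3, 36 and 26 UMIs in WT, P27NULL and S2CK. Cdkn2a (p16 and p19ARF, which accumulate in senescent cells) stood at 0.329, 1.46 and 0.760 CPM on 2, 20 and 13 UMIs. For both, the interval of the ratio of S2CK to WT included no difference.

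Between S2CK and P27NULL in melanotroph-like cells, 2 members were higher by 1.5-fold or more (Cdkn1c and Cdkn2c), against 5.17% of all 13494 genes, and 3 were lower (Cdkn1b, Cdkn2a and Cdkn2b), against 15.3%. Of these, Cdkn2a rested on 13 and 20 UMIs, its log2 ratio of -0.94 (-2.07 to 0.14) included no difference, and thinning turned it to 0.65. The intervals of Cdkn1c and Cdkn2b spanned the 1.5-fold line. The median log2 ratio of the members was -0.49 and that of all genes -0.15. In S2CK against WT, 4 of the 6 members with enough UMIs were higher (Cdkn1a, Cdkn1c, Cdkn2b and Cdkn2c), against 8.35% of all 13022 genes, and Cdkn1b was lower, against 9.79%. The interval of Cdkn1a (1.21 to 4.29-fold) spanned the 1.5-fold line, and that of Cdkn2b included no difference. Cdkn2b reached the minimum mainly through S2CK, with 26 UMIs there and 3 in WT, as did Cdkn1a (80 and 13) and Cdkn1c (182 and 18). The medians were 1.32 for the members and -0.04 for all genes.

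**Figure D2:**
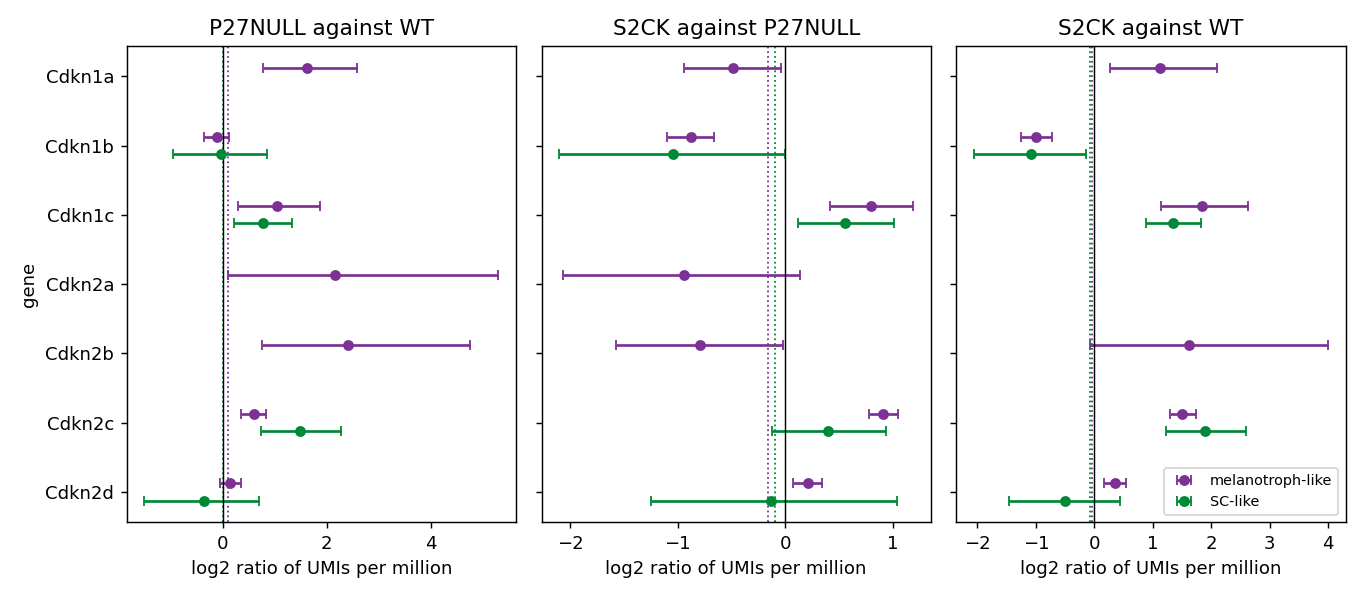
Log2 ratios of the CDK inhibitor genes between libraries in melanotroph-like and SC-like cells, for members with at least 20 UMIs in the compared libraries together. Points carry exact 95% intervals from counting error, and dotted lines mark the median of all genes in each cell type. Cdkn2c lies above 0 in all 3 comparisons in melanotroph-like cells (0.59, 0.91 and 1.51), and Cdkn1b lies below 0 where S2CK is compared (-0.88 and -1.0).

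Summed, the 6 members other than Cdkn1b stood at 85.7 CPM in WT (78.5 to 93.4), 117 in P27NULL (112 to 123) and 167 in S2CK (161 to 173) in melanotroph-like cells. The sum was thus 1.37-fold higher in P27NULL than in WT (1.24 to 1.51) and 1.43-fold higher in S2CK than in P27NULL (1.34 to 1.52). The INK4 genes held most of its counted UMIs, at 80.6, 105 and 152 CPM, which does not compare expression between genes. The Cip/Kip genes together stood at 38.8, 43.7 and 32.2 CPM, lowest in S2CK. A UMI of any member was found in 39.2% of WT, 38.0% of P27NULL and 61.1% of S2CK melanotroph-like cells, and at 1000 UMIs per cell in 10.6%, 13.7% and 16.7%. UMIs of more than 1 member were found in 8.11%, 8.32% and 18.6% of cells. These last shares were read at unequal median depths of 4179, 2824 and 5022.5 UMIs and were not repeated after thinning.

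The members were next followed across the clusters of melanotroph-like cells within each library, of which 4 in WT, 9 in P27NULL and 10 in S2CK held at least 40 cells. Cdkn2c ranged from 25.6 to 34.6 CPM over the WT clusters, from 33.1 to 84.0 CPM over those of P27NULL and from 67.7 to 104 CPM over those of S2CK. Every S2CK cluster stood above every WT cluster. The ranges of WT and P27NULL overlapped at their edges, as did those of P27NULL and S2CK. Cdkn1b ranged from 29.4 to 42.3 CPM in WT, from 18.3 to 42.9 CPM in P27NULL and from 14.1 to 20.4 CPM in S2CK. The highest Cdkn2c and Cdkn2d levels in P27NULL, 84.0 and 123 CPM, were in the same cluster, of 116 cells and led by the mitosis genes Top2a, Ube2c, Cdca3 and Cdk1. Cdkn1c was uneven in S2CK, from 6.38 to 32.6 CPM, with its highest level in a cluster led by the immediate early genes Egr3, Arc and Fosb. Clusters of 1 library are parts of 1 sample and not replicates.

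**Figure D3:**
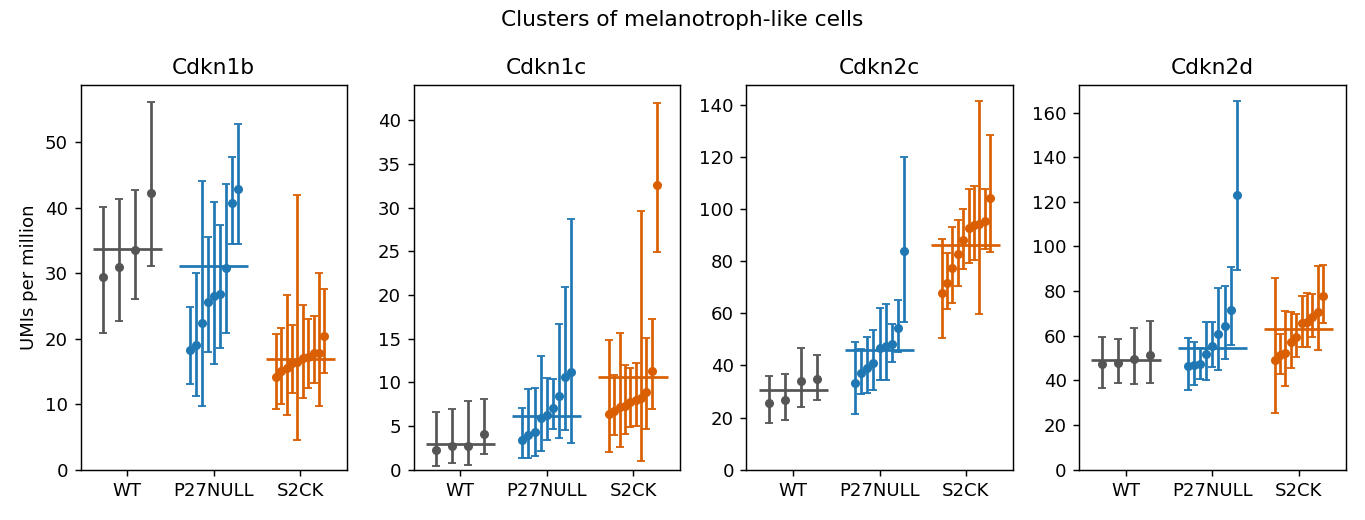
Levels of CDK inhibitor genes in the clusters of melanotroph-like cells with at least 40 cells, by library, in CPM with exact 95% Poisson intervals. The horizontal line is the level over all melanotroph-like cells of the library. For Cdkn2c, every S2CK cluster (67.7 to 104 CPM) lies above every WT cluster (25.6 to 34.6 CPM).

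Sex moved with the libraries. Of the melanotroph-like cells, 2892 of 3010 in S2CK had an Xist UMI and no Y-linked UMI, as did 641 of 3545 in P27NULL and 0 in WT, so that S2CK was close to female although labelled as a male and a female. Within P27NULL, Cdkn2c stood at 38.8 CPM in cells with Xist (31.9 to 46.6) and at 47.9 CPM in cells without (43.9 to 52.3), a log2 ratio of -0.31 (-0.61 to -0.01). The cells with Xist were also the deeper ones, with a median of 3770 UMIs against 2676. Against P27NULL cells with Xist alone, S2CK was higher for Cdkn2c by 1.16 on the log2 scale (0.88 to 1.45) and for Cdkn1c by 1.5, and lower for Cdkn1b (-1.12). P27NULL cells without Xist were higher than WT for Cdkn2c by 0.66. In S2CK, 118 cells had no Xist UMI, and in these Cdkn2c stood at 99.6 CPM (70.9 to 136) on 39 UMIs and Cdkn1b at 12.8 CPM (4.15 to 29.8) on 5 UMIs, beside 30.4 and 33.7 CPM in WT. A cell without an Xist UMI need not be male, and sex and library cannot be told apart between S2CK and WT.

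In SC-like cells, where the Cre is expressed from Sox9, Cdkn2c and Cdkn1c were again higher in the libraries labelled P27NULL and S2CK. Cdkn2c stood at 42.4 CPM in WT (27.2 to 63.1, 24 UMIs), 119 in P27NULL (86.5 to 159, 45 UMIs) and 156 in S2CK (128 to 190, 103 UMIs). WT lay below both others, whose intervals overlapped. The 5 highest cells held 11 of 24 UMIs in WT, 16 of 45 in P27NULL and 34 of 103 in S2CK. The intervals do not cover such unevenness between cells. The log2 ratio was 1.48 between P27NULL and WT (0.74 to 2.26), 0.40 between S2CK and P27NULL (-0.12 to 0.94) and 1.88 between S2CK and WT (1.23 to 2.59). These levels exceeded those of melanotroph-like cells in the same library by 2.58-fold in P27NULL and 1.81-fold in S2CK. In WT the log2 ratio of melanotroph-like to SC-like cells was -0.48 (-1.10 to 0.20), which includes no difference. Pomc in SC-like cells was at most 15.0% of its melanotroph-like level. Cdkn1c stood at 93.7 CPM in WT (70.2 to 123), 161 in P27NULL (123 to 207) and 237 in S2CK (201 to 277). In S2CK, 63 of its 156 UMIs came from 5 cells. A Cdkn1c UMI was found in 22.1%, 33.3% and 54.3% of SC-like cells, at median depths of 2019, 2275 and 3561.5 UMIs. At 1000 UMIs per cell these shares were 10.8% (6.01 to 17.4), 16.2% (9.72 to 24.7) and 17.4% (10.3 to 26.7), with overlapping intervals.

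Over the members, 2 of the 4 with enough UMIs were higher by 1.5-fold or more between P27NULL and WT in SC-like cells (Cdkn1c and Cdkn2c), against 11.7% of all 6001 genes, and none was lower, against 11.1%. Between S2CK and P27NULL none was higher, against 14.3% of all 6368 genes, and Cdkn1b was lower (log2 ratio -1.04, -2.10 to -0.01), against 19.4%. Between S2CK and WT, Cdkn1c and Cdkn2c were higher, against 14.1% of all 6929 genes, and Cdkn1b was lower (-1.08, -2.06 to -0.15), against 17.1%. With 4 genes and 1 library each, these counts moved easily: with TMM scaling Cdkn1c was past 1.5-fold between S2CK and P27NULL as well (log2 ratio 0.67 in place of 0.56). Cdkn2d was 40.6, 31.6 and 28.9 CPM over WT, P27NULL and S2CK with overlapping intervals. Cdkn1a, Cdkn2a and Cdkn2b had at most 12 UMIs in any SC-like sum. Cdkn2a had 0 UMIs in WT and P27NULL SC-like cells, for which the exact intervals reach up to 6.52 and 9.72 CPM. When the 3 libraries were clustered together, 9 of the 92 S2CK SC-like cells, 1 of the 105 from P27NULL and 0 of the 145 from WT were placed with pituicyte-like cells, the glia of the neighboring lobe, in which Cdkn1c was also high. With SC-like cells taken from that clustering, Cdkn1c differed by 0.62 and Cdkn2c by 0.46 on the log2 scale between S2CK and P27NULL.

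Cdkn1c marked cell type more than library. Its level was higher in SC-like than in melanotroph-like cells by 31.6-fold in WT, 26.3-fold in P27NULL and 22.3-fold in S2CK. The Cdkn1c level of melanotroph-like cells was 3.16%, 3.81% and 4.49% of that in SC-like cells, whereas that of Mia, an abundant SC transcript, was 0.314%, 0.546% and 1.11%. Cdkn2b was higher in SC-like cells as well, by 4.02-fold to 12.0-fold, on few UMIs. Cdkn2d went the other way in S2CK, where melanotroph-like cells were 2.19-fold higher.

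The smaller cell types gave fewer UMIs, and only wide differences could be read. Cdkn1b was higher in gonadotroph-like cells, the hormone-producing cells of the anterior lobe marked by Lhb and Fshb, than in melanotroph-like or SC-like cells of every library, at 143 CPM in WT (106 to 188), 134 in P27NULL (104 to 171) and 91.0 in S2CK (54.8 to 142). In the same cells Cdkn1c stood at 25.2 CPM in WT (11.5 to 47.8), 204 in P27NULL (166 to 248) and 101 in S2CK (62.2 to 154), a log2 ratio of 3.01 between P27NULL and WT (2.03 to 4.18). Cdkn2c had 1, 12 and 17 UMIs there, at 2.80, 24.4 and 81.4 CPM. The orders of Cdkn1c and Cdkn2c over the libraries therefore differed within these cells.

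In a cluster led by Tnnt1, which received no cell type name, Cdkn1c stood at 68.2, 269 and 179 CPM over WT, P27NULL and S2CK, with a log2 ratio of 1.98 between P27NULL and WT (1.33 to 2.66). In pituicyte-like cells it stood at 245 CPM in WT (152 to 374) and 483 CPM in P27NULL (326 to 690). No S2CK cell kept this name, because the 9 S2CK cells placed with pituicyte-like cells in joint clustering were named SC-like. In connective tissue-like cells Cdkn2c stood at 43.4, 67.3 and 174 CPM, with a log2 ratio of 2.0 between S2CK and WT (0.61 to 3.74) on 27 and 5 UMIs. Cdkn2d in macrophage-like cells had 1, 3 and 15 UMIs, at 4.84, 9.0 and 40.1 CPM. Cdkn2c in macrophage-like cells, at 33.9, 36.0 and 40.1 CPM, had overlapping intervals in all 3 libraries.

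**Figure D4:**
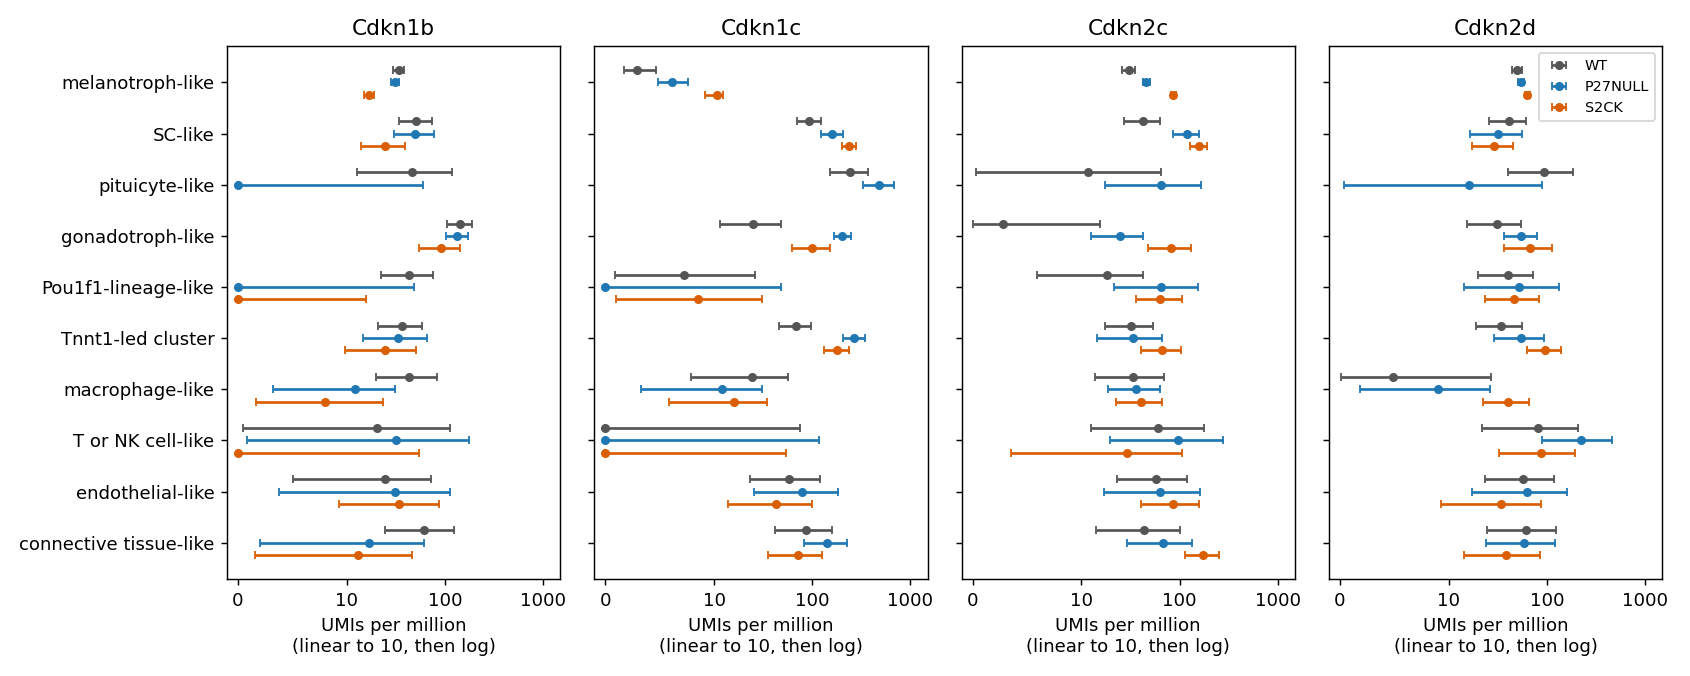
Levels of 4 CDK inhibitor genes in 10 cell types by library, in CPM, on an axis that is linear to 10 CPM and logarithmic above, with exact 95% Poisson intervals. No S2CK cells carried the pituicyte-like name. Cdkn1b is high in gonadotroph-like cells (143, 134 and 91.0 CPM), and Cdkn1c is low in melanotroph-like cells (2.96, 6.12 and 10.6 CPM) against SC-like and pituicyte-like cells.

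Cells with UMIs of several mitosis genes were few and were set apart. A UMI of at least 3 of 20 mitosis genes was found in 3 of 1270 WT, 10 of 3545 P27NULL and 3 of 3010 S2CK melanotroph-like cells. In these cells Cdkn2c stood at 408 CPM in WT (204 to 731), 309 in P27NULL (165 to 529) and 534 in S2CK (256 to 982). In the 1218, 3341 and 2805 cells without a UMI of any mitosis gene it stood at 28.8, 44.7 and 86.3 CPM. The cells with at least 3 mitosis genes were thus higher in each library, by 14.2-fold, 6.92-fold and 6.19-fold. Cdkn2d was higher in these cells of WT (260 against 47.4 CPM) and P27NULL (428 against 54.3 CPM), and in S2CK it had 2 UMIs there. Without the cells with at least 3 mitosis genes, Cdkn2c differed by 0.65 on the log2 scale between P27NULL and WT and by 0.93 between S2CK and P27NULL. Cells with UMIs of fewer mitosis genes stayed in these ratios.

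The other genes of the pathway were taken as 8 lists. Their counts in melanotroph-like cells stand beside all genes, of which 11.0% were higher and 4.42% lower between P27NULL and WT, 5.17% and 15.3% between S2CK and P27NULL, and 8.35% and 9.79% between S2CK and WT. Of the D cyclins, Cdk4 and Cdk6, none of 5 was higher in any comparison. Ccnd1 and Ccnd2 were lower in each, and Ccnd3 was lower between S2CK and WT. Ccnd1, which binds CDK4 and CDK6, stood at 56.3 CPM in WT (342 UMIs), 6.49 in P27NULL (89 UMIs) and 1.75 in S2CK (30 UMIs). The log2 ratios were -3.12 (-3.47 to -2.78) between P27NULL and WT and -1.89 (-2.53 to -1.27) between S2CK and P27NULL. Ccnd2 stood at 441, 112 and 16.1 CPM on 2683, 1538 and 275 UMIs, with ratios of -1.98 (-2.07 to -1.89) and -2.80 (-2.99 to -2.61). Ccnd3 stood at 61.8, 59.1 and 39.8 CPM, with a ratio of -0.63 between S2CK and WT. Thus Ccnd1 and Ccnd2 ran opposite to Cdkn2c over the 3 libraries, while the kinases Cdk4 (128, 133 and 115 CPM) and Cdk6 (8.22, 10.1 and 10.0 CPM) differed by less than 1.5-fold.

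Ccnd2 differed in other cell types as well, though between P27NULL and WT not in all. It stood at 258, 60.6 and 31.9 CPM in SC-like cells of WT, P27NULL and S2CK, and at 148, 31.3 and 8.49 CPM in endothelial-like cells, on 18, 2 and 1 UMIs. In Pou1f1-lineage-like cells (356 and 327 CPM), the cluster led by Tnnt1 (436 and 374 CPM) and T or NK cell-like cells (302 and 255 CPM) the intervals of WT and P27NULL overlapped. In gonadotroph-like cells it stood at 381 CPM in WT and 114 CPM in P27NULL, with 0 UMIs in S2CK, for which the exact interval reaches up to 17.7 CPM. Ccnd1, in contrast, stood at 65.4, 52.7 and 62.3 CPM in SC-like cells. This order over libraries cannot be told apart from differences between the animals that were pooled.

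**Figure D5:**
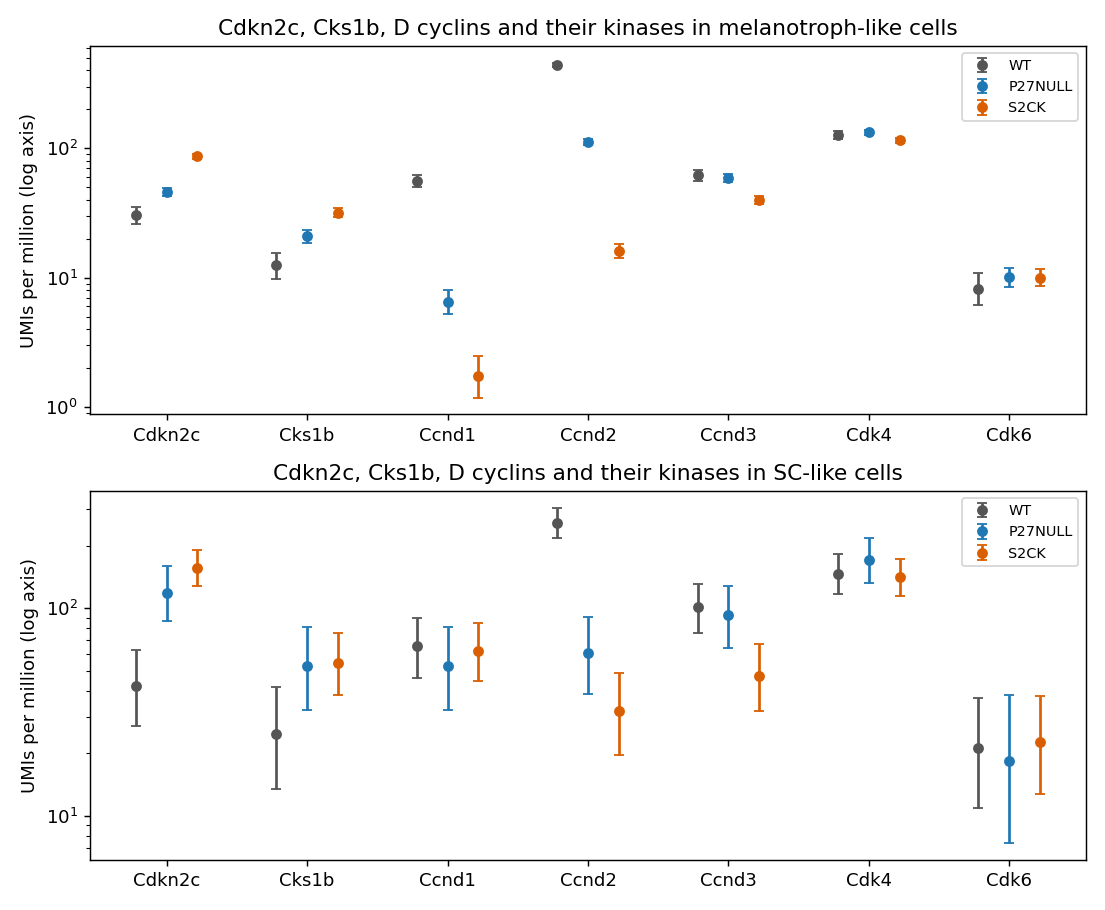
Levels of Cdkn2c, Cks1b, the D cyclins and their kinases in melanotroph-like and SC-like cells by library, in CPM on a log axis with exact 95% Poisson intervals. In melanotroph-like cells Ccnd1 and Ccnd2 step down over WT, P27NULL and S2CK (56.3, 6.49 and 1.75 CPM, and 441, 112 and 16.1 CPM) while Cdkn2c and Cks1b step up.

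Of 6 genes of p27 turnover, Cks1b was the only one past 1.5-fold in melanotroph-like cells, and it was higher in each comparison. Cks1b, a cofactor of the SKP2 ubiquitin ligase that marks p27 for degradation, stood at 12.5 CPM in WT, 21.0 in P27NULL and 31.8 in S2CK. On the log2 scale it was higher by 0.75 (0.38 to 1.13) between P27NULL and WT and 0.60 (0.39 to 0.81) between S2CK and P27NULL. Skp2 itself stood at 1.97, 2.48 and 2.16 CPM on 12 to 37 UMIs. In SC-like cells Cks1b stood at 24.7, 52.7 and 54.7 CPM.

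Of the 6 E2F genes with enough UMIs, 2 were higher between P27NULL and WT, E2f1 (5.32 against 2.30 CPM) and E2f2 (6.78 against 4.44 CPM), against 11.0% of all genes. Between S2CK and P27NULL none was higher and 3 were lower, E2f1 (log2 ratio -0.95), E2f3 (-1.04) and E2f4 (-0.65), against 15.3% of all genes lower. Between S2CK and WT, E2f3 (-0.72) and E2f6 (-0.78) were lower, against 9.79%. Of the 3 pocket protein genes, Rb1 was lower between S2CK and P27NULL (-0.65), and none passed 1.5-fold in the other comparisons. Of the E and A cyclins and Cdk2, Ccne2 was lower in S2CK than in P27NULL (-1.07) and than in WT (-0.91).

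Of 11 regulators of CDK inhibitor genes, none passed 1.5-fold between P27NULL and WT in melanotroph-like cells. They include Men1, which encodes menin and activates Cdkn1b and Cdkn2c in endocrine cells, at 10.4, 10.8 and 9.94 CPM over WT, P27NULL and S2CK, and its partner Kmt2a, at 56.6, 68.4 and 57.9 CPM. Between S2CK and P27NULL, Bmi1, a Polycomb repressor of Cdkn2a, was higher (0.67, 0.42 to 0.93), and Zbtb17, which activates Cdkn2b and Cdkn1a, was lower (-0.87), as was Klf4 on few UMIs (-1.81). Against WT, only Klf4 passed, and it was lower (-2.28). Of 11 p53 target genes with enough UMIs, 1 was higher in P27NULL than in WT and 1 in S2CK than in WT, in both Phlda3 (1.29 and 1.17), which is near the 11.0% and 8.35% of all genes. Ccng1 was lower in S2CK than in P27NULL (-0.67), and Sesn2 was lower in S2CK than in WT (-0.72).

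Of the mitosis genes, 1 of 15 was higher and 3 were lower between P27NULL and WT, where 11.0% and 4.42% of all genes were. For S2CK against P27NULL, 1 of 17 was higher and 12 were lower, against 5.17% and 15.3%, and between S2CK and WT 1 of 11 was higher and 7 were lower, against 8.35% and 9.79%. Cenpf, a kinetochore protein made in late interphase and mitosis, stood at 6.25, 6.34 and 0.877 CPM over WT, P27NULL and S2CK. E2f1 and Phlda3 between P27NULL and WT, Klf4, Sesn2, Men1, Kmt2a, Skp2, Cdk4 and Cdk6 fell outside the rule for named genes and were named after their values were seen.

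The genes most like each member were sought over 27 sums of a library and a cell type, by Pearson correlation of log2(CPM + 1) over 12170 genes. The sums of 1 library share its depth and free RNA, and many small sums hold few UMIs, so the values are a description. Cdkn1c was most like Ift43 (r = 0.87), Tcf7l2 (0.85) and Aldh2 (0.83). Cdkn1b was most like Zfp219 (0.83), Mgat4b (0.81) and Snx13 (0.79), Cdkn1a like Tifa (0.78), Sash1 (0.77) and Ncoa3 (0.74), and Cdkn2d like Fbxo11 (0.76), Hilpda (0.76) and Cep57 (0.73). Cdkn2c had the weakest likeness of these, with H3f3a at 0.68, Mknk2 at 0.67 and Hnrnpa0 at 0.66. Cdkn2a and Cdkn2b had too few UMIs. Between members the correlation was highest for Cdkn1b and Cdkn1c (0.60) among the 5 that were taken, and lowest for Cdkn1b and Cdkn2c (-0.28).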

How the data were processed

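The data were droplet single-cell RNA sequencing of mouse IL, 1 library per genotype. The authors deposited a table of UMI counts per gene and cell for each library. Per the submitters' processing notes and the study's methods, reads were aligned to mm10 with Cell Ranger 3.0.2 (STAR 2.5.1b), and cells were filtered on genes and mitochondrial share in Seurat 3 (R 3.6.0). No normalized value was used here, and 0 columns went unused.

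Cells of each table were scaled to 10000, reduced to 2000 variable genes and 20 components, and clustered with 20 neighbours at Leiden resolution 1 (scanpy 1.11.5, leidenalg 0.10.2, igraph 0.11.9, Python 3.11.15). The same was done for the 3 tables together. That joint clustering named the smaller cell types, gave the cluster led by Tnnt1 and served as an alternative for melanotroph-like and SC-like cells. The 7 members, most list genes, Sox2, Sox9, Pomc, Tbx19, immediate early genes and genes of sex did not enter the clustering. Clusters were called X-like by their markers, at least 3 of them with a UMI in 10% or more of the cluster's cells, a condition added after first names were seen. Scrublet marked 11 of 9661 cells, too few for it to have worked, so doublets were kept. An alternative left out the 268 highest scores.

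The counts of each library and cell type were added up and divided by the total to give CPM. Exact 95% intervals were Poisson for CPM, binomial for shares and conditional for ratios (scipy 1.17.1). They cover counting error only, and no test between genotypes was run. Genes had to hold at least 20 UMIs in the compared libraries together, and a difference of 1.5-fold was called. Shares of cells with a UMI of a member or of a set of members were repeated after thinning to 1000 UMIs per cell. The alternatives tried were a minimum per cell of 500 genes or of 1000 UMIs, doublets, joint clustering, resolution 2, edgeR 4.0.16 TMM scaling (R 4.3.3), totals without Pomc, mitochondrial and ribosomal protein genes, thinning, cells of one sex, a 2-fold line and minimums of 50 or 1 UMI. For the cells set apart by mitosis genes, at least 5 such genes in place of 3 was also tried. An alternative naming rule and leaving out cells with mitosis transcripts were added after seeing the data. The filters on cells and on doublets kept the main cell names. The calling of differences and the intervals of ratios were checked on simulated Poisson sums with changes larger than 1.5-fold. Clustering, naming, thinning and unevenness between cells were not simulated.

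Named genes were the 7 members, up to 4 per list and comparison past 1.5-fold with at least 100 UMIs, and the 3 genes most like each member. The members and lists were chosen with earlier results of these data known. Promoter sequences are from RefSeq (GRCm38.p6). Coordinates of deposited features were not given in the tables.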

Additional observations from a re-analysis of the deposited data

How the results depend on the processing

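Over 13 alternatives and 2 more chosen after seeing the data, 141 of 164 counts of members past the line stayed within 1.5 times the main count and 23 moved further. The alternative of at least 5 mitosis genes concerned only the cells set apart by mitosis genes and gave no such count. Smaller moves, in melanotroph-like cells, were to 4 members higher in P27NULL than in WT in place of 5 with joint clustering, TMM scaling, totals without Pomc, mitochondrial and ribosomal protein genes, or the 2-fold line, each losing Cdkn2c, to 2 lower between S2CK and P27NULL in place of 3 at 50 UMIs, and to 3 and 5 higher between S2CK and WT in place of 4 at 50 and 1 UMIs. In SC-like cells 3 were higher between P27NULL and WT in place of 2 at 1 UMI. In melanotroph-like cells, members higher in P27NULL than in WT numbered 2 when cells were thinned to 1000 UMIs and 3 at a minimum of 50 UMIs, in place of 5. Between S2CK and P27NULL, members lower numbered 0 when thinned, 1 with cells of one sex and 0 at 2-fold, in place of 3, and members higher numbered 0 at 2-fold, in place of 2. Between S2CK and WT, members higher numbered 2 when thinned, in place of 4, and lower 0 at 2-fold, in place of 1. In SC-like cells, members higher in P27NULL than in WT numbered 1 when thinned and 1 at 2-fold, in place of 2, and lower 1 at a minimum of 1 UMI, in place of 0. Between S2CK and P27NULL, members higher numbered 1 with joint clustering, TMM scaling, totals without Pomc, mitochondrial and ribosomal protein genes, or thinning, 2 with cells of one sex and 3 at a minimum of 1 UMI, in place of 0, and lower 0 when thinned or at 50 UMIs, in place of 1. Between S2CK and WT, members higher numbered 1 when thinned and 4 at 1 UMI, in place of 2, and lower 0 when thinned or at 50 UMIs, in place of 1. Thinning and the minimum of 50 UMIs left fewer members with enough UMIs. In melanotroph-like cells, thinning also brought members that kept enough UMIs inside the 1.5-fold line. These were Cdkn1c between P27NULL and WT and Cdkn1b between S2CK and P27NULL. The cause of the moves was not tested.

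In single genes of melanotroph-like cells, thinning reversed Cdkn1c between P27NULL and WT (-0.51 in place of 1.05) and Cdkn2a between S2CK and P27NULL (0.65 in place of -0.94). TMM scaling moved the median log2 ratio of all genes between S2CK and P27NULL from -0.15 to -0.02, and the shares of genes higher and lower from 5.17% and 15.3% to 8.27% and 10.1%. No paired analysis was possible because each genotype had 1 library. Depth limits Cdkn2a and Cdkn2b everywhere and Cdkn1a outside melanotroph-like cells.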
